A study of Mus musculus with 6 samples.

Results

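The enzymes of methionine and betaine metabolism were examined in mouse liver as a set of 9 genes: Mat1a, Gnmt, Ahcy, Bhmt, Bhmt2, Mtr, Cbs, Cth and Pemt. They were chosen by name, for the reaction that each enzyme carries out, and with earlier results of these data known. Each was looked up by gene identifier among the 55487 genes of the deposited count table. All 9 passed the filter on low counts and were among the 14046 genes tested. The libraries came from wild-type male C57BL/6J mice on a normal chow diet, with 3 mice injected subcutaneously with GalNAc-siNC and 3 with GalNAc-siRnf10. GalNAc-siRnf10, named GalNAc-siRnf10-2 in the study's methods, is a small interfering RNA against Rnf10, which encodes a RING finger ubiquitin ligase. Its N-acetylgalactosamine ligand binds the asialoglycoprotein receptor of hepatocytes, and GalNAc-siNC carries a control RNA on the same ligand. Livers were collected at 17 weeks of age, each mouse gave 1 library, and all 6 libraries belonged to the batch labelled 1. The study sequenced these livers to assess off-target effects of the conjugate.

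Hepatocytes turn methionine into S-adenosylmethionine (SAM), the methyl donor of most methylation reactions. A transferred methyl group leaves S-adenosylhomocysteine (SAH), which is hydrolyzed to homocysteine. Homocysteine is either remethylated to methionine, with betaine or a folate as methyl donor, or passed through cystathionine to cysteine in transsulfuration. The liver carries out much of the body's methionine breakdown, and its betaine comes from the oxidation of choline.

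Of these 9 mRNAs, 5 rose in GalNAc-siRnf10-treated mice, none fell and 4 did not pass the test. Those that rose were Cth, Gnmt, Ahcy, Pemt and Mat1a, by 1.73-fold at most. The 3 enzymes that remethylate homocysteine (Bhmt, Bhmt2 and Mtr) and Cbs, which opens transsulfuration, were not called. Among all genes tested, 14.0% were called at an adjusted p under 0.05 (6.71% higher and 7.28% lower) by edgeR's quasi-likelihood test, adjusted by the Benjamini-Hochberg method. The median log2 fold change was 0.20 over the 9 enzymes and 0.0022 over all genes tested. Because the libraries are from whole liver, more cells of a type and more RNA per cell cannot be told apart.

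Total counts were between 26854377 and 33058645 per library. Values below are counts normalized by the trimmed mean of M values (TMM), scaled to the mean library, and given for mice 1, 2 and 3 in that order. Rnf10 itself was 3869, 4536 and 4040 in GalNAc-siNC-treated mice and 1738, 1820 and 1793 in GalNAc-siRnf10-treated mice, a fall of 57% (log2 fold change -1.22, SE 0.0715, adjusted p 3.29e-09, edgeR). GalNAc-siNC mouse 1 stood apart from the other control mice. Its median absolute log2 difference from mice 2 and 3 was 0.187 and 0.155, against 0.129 between those 2 and at most 0.0915 between GalNAc-siRnf10-treated mice. It was lower than the mean of the other control mice by 14.6% in Gnmt, 13.7% in Cbs and 16.9% in Pemt, so results are also given without it. Without this mouse, 2864 genes were called in place of 1965, and the same 5 of the 9 enzymes rose.

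**Figure D1:**
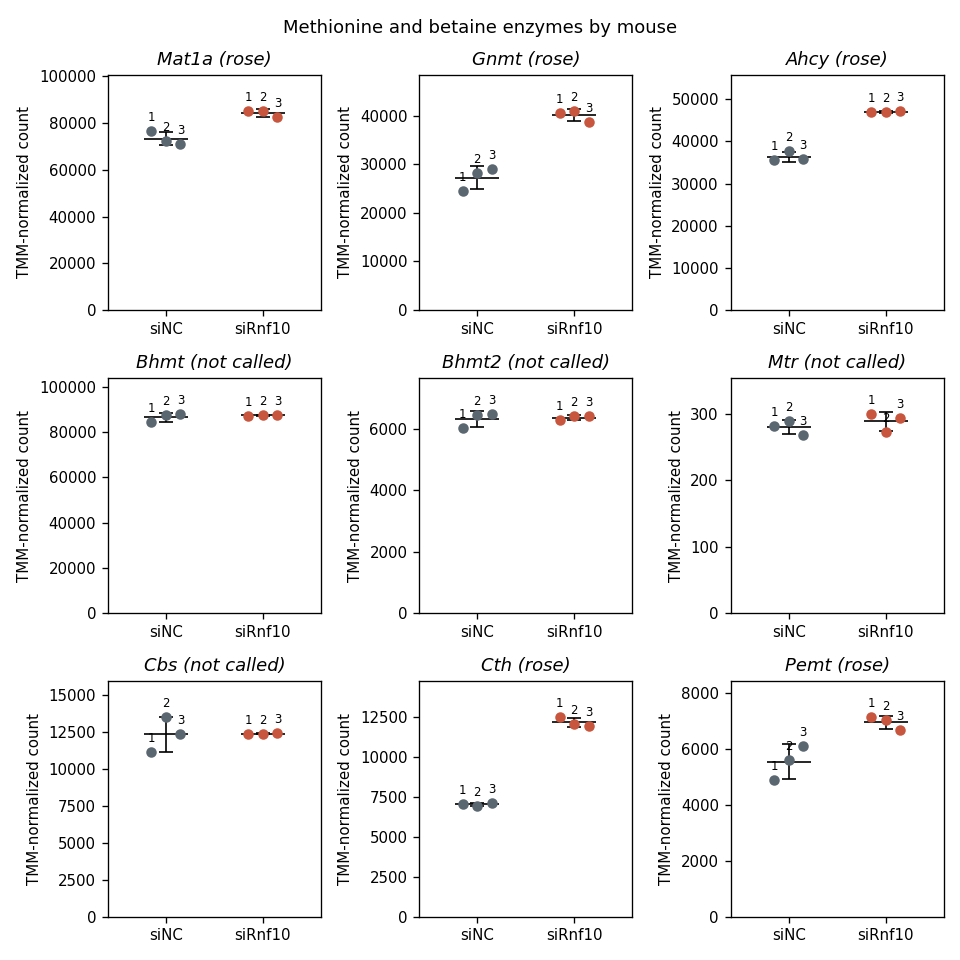
TMM-normalized counts (vertical axes, each from 0) of the 9 enzymes in 3 GalNAc-siNC-treated (grey) and 3 GalNAc-siRnf10-treated (red) mice, with mouse numbers beside the points, the group mean as a bar and its SD as whiskers. The groups are apart for Mat1a, Gnmt, Ahcy, Cth and Pemt and overlap for Bhmt, Bhmt2, Mtr and Cbs.

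Mat1a, Gnmt and Ahcy form the run from methionine to homocysteine, and all 3 rose. Mat1a (chr14:41105035-41124412, plus strand, GRCm38) encodes the methionine adenosyltransferase of adult liver, which joins methionine and ATP into SAM. Its counts were 76487, 72417 and 70999 in GalNAc-siNC-treated mice and 85096, 85247 and 82500 in GalNAc-siRnf10-treated mice. The lowest treated mouse lay above the highest control mouse. The group means were 73301 ± 2849 and 84281 ± 1544 (SD, n = 3 each), a rise of 15% (log2 fold change 0.20, 95% interval 0.10 to 0.31, adjusted p 0.0104, edgeR). This was the smallest change among those called. Without GalNAc-siRnf10 mouse 1, 2 or 3 the change was 0.19, 0.19 or 0.22 and was no longer called (adjusted p 0.0937, 0.0974 and 0.0583, edgeR), and without GalNAc-siNC mouse 1 it was 0.23 and called.

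Gnmt (chr17:46725664-46729168, minus strand) encodes glycine N-methyltransferase, which spends SAM to turn glycine into sarcosine and so takes up SAM in excess. It was measured at 24458, 28274 and 29013 in GalNAc-siNC-treated mice and at 40592, 41005 and 38700 in GalNAc-siRnf10-treated mice. The control mice spread more than the treated mice, with mouse 1 the lowest, yet no control mouse came near the treated range. Gnmt rose from 27248 ± 2445 to 40099 ± 1229 (SD, n = 3 each), or 1.47-fold (log2 fold change 0.56, 95% interval 0.43 to 0.69, adjusted p 7.75e-06, edgeR). Without GalNAc-siNC mouse 1 the log2 fold change was 0.48 and still called.

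Ahcy (chr2:155059310-155074497, minus strand) encodes adenosylhomocysteinase, which splits SAH into adenosine and homocysteine. Its counts were 35499, 37661 and 35858 in GalNAc-siNC-treated mice and 46983, 46852 and 47253 in GalNAc-siRnf10-treated mice. The treated mice lay close together and all above the controls. The rise was 29.4%, from 36339 ± 1159 to 47029 ± 205 (log2 fold change 0.37, 95% interval 0.27 to 0.48, adjusted p 5.21e-05, edgeR).

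Ahcy shares much of its sequence with copies elsewhere in the genome, so its counts depend on how shared reads were assigned, which is not given in the sources used here. Of the 2469 windows of 75 bases along its longest coding transcript, 74.4% were also found in the transcripts of other genes, mainly Gm4737. These windows are shorter than the paired reads of 150 bases, so this is not the share of reads that cannot be placed. Gm4737 had 4802, 4733 and 4357 in GalNAc-siNC-treated mice and 5465, 5884 and 5758 in GalNAc-siRnf10-treated mice, and it also rose (log2 fold change 0.30, adjusted p 0.0031, edgeR). With the counts of both summed, an alternative chosen after seeing the data, the rise remained called with a log2 fold change of 0.36.

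Bhmt, Bhmt2 and Mtr each pass a methyl group to homocysteine, from different donors, and none of their mRNAs was called. Bhmt (chr13:93616675-93637961, minus strand), betaine-homocysteine methyltransferase, which leaves dimethylglycine, was 84211, 87255 and 87958 in GalNAc-siNC-treated mice and 86953, 87344 and 87667 in GalNAc-siRnf10-treated mice. The treated mice fell inside the control range. The means were 86475 ± 1991 and 87321 ± 357 (SD, n = 3 each), and the 95% interval of the change ran from -5.69% to 8.13% (log2 fold change 0.014, adjusted p 0.884, edgeR).

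Bhmt2 (chr13:93655720-93674302, minus strand) lies next to Bhmt and encodes a related enzyme that takes its methyl group from S-methylmethionine. Its counts were 6028, 6458 and 6494 in GalNAc-siNC-treated mice and 6297, 6419 and 6410 in GalNAc-siRnf10-treated mice. The groups overlapped, with a 95% interval of the change from -7.34% to 9.61% (log2 fold change 0.011, adjusted p 0.925, edgeR). Mtr (chr13:12182712-12258113, minus strand), the cobalamin-dependent methionine synthase, was 282, 290 and 269 in GalNAc-siNC-treated mice and 300, 273 and 294 in GalNAc-siRnf10-treated mice. These groups also overlapped, and the interval was wider, from -12.6% to 21.6% (log2 fold change 0.043, adjusted p 0.848, edgeR).

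The neighbourhood of Bhmt held a single gene that was called. Gm15622, an antisense gene on the opposite strand inside Bhmt, shares 187 exon bases with it and rose from raw counts of 2, 10 and 12 in GalNAc-siNC-treated mice to 92, 75 and 103 in GalNAc-siRnf10-treated mice (log2 fold change 3.60, adjusted p 7.83e-06, edgeR). Whether the counting used the strand is not given in the sources used here, so reads of the 187 shared bases cannot be assigned with certainty. Adding the counts of Gm15622 to Bhmt left Bhmt uncalled. Gm15622 had at most 103 raw counts and Bhmt at least 76929, so this sum could hardly move Bhmt and does not settle the assignment. The protein-coding neighbours Jmy (log2 fold change -0.13), Dmgdh (0.073) and Arsb (-0.13) were not called. Bhmt also has near copies. Of its 2416 windows of 75 bases, again shorter than a read, 50% occurred in other genes, mainly Gm5096. Gm5096 was not called either (10807, 10866 and 10863 in GalNAc-siNC-treated mice and 10159, 10558 and 10292 in GalNAc-siRnf10-treated mice, log2 fold change -0.069).

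Of the 2 enzymes of transsulfuration, Cth rose and Cbs was not called, and the difference between their changes was not tested. Cbs (chr17:31608894-31637238, minus strand), cystathionine beta-synthase, joins homocysteine and serine. It was 11166, 13518 and 12347 in GalNAc-siNC-treated mice and 12345, 12402 and 12440 in GalNAc-siRnf10-treated mice. The control mice lay on both sides of the narrow treated range, and Cbs was not called (12344 ± 1176 and 12396 ± 47.6, SD, n = 3 each, log2 fold change 0.0062, 95% interval -0.13 to 0.14, adjusted p 0.966, edgeR). Without GalNAc-siNC mouse 1 its log2 fold change was -0.063 and again not called.

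Cth (chr3:157894248-157925077, minus strand), cystathionine gamma-lyase, cleaves cystathionine to cysteine and can also release hydrogen sulfide. Its counts were 7034, 6923 and 7082 in GalNAc-siNC-treated mice and 12484, 12057 and 11905 in GalNAc-siRnf10-treated mice. Both groups were tight, and the gap between them was far wider than either. Cth rose 1.73-fold, from 7013 ± 81.5 to 12149 ± 300 (SD, n = 3 each, log2 fold change 0.79, 95% interval 0.68 to 0.91, adjusted p 1.78e-08, edgeR), which was rank 45 by p among all genes tested. It was the largest change among the 9 enzymes, and leaving out each mouse in turn gave between 0.77 and 0.81.

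Pemt (chr11:59970614-60046489, minus strand) encodes phosphatidylethanolamine N-methyltransferase, which uses SAM to make phosphatidylcholine. It was 4884, 5625 and 6124 in GalNAc-siNC-treated mice and 7146, 7050 and 6693 in GalNAc-siRnf10-treated mice. Control mouse 1 was the lowest of all, and the groups did not overlap. Pemt rose by 25.6%, from 5545 ± 624 to 6963 ± 238 (SD, n = 3 each, log2 fold change 0.33, 95% interval 0.17 to 0.48, adjusted p 0.00561, edgeR). It was called at 0.24 without GalNAc-siNC mouse 1, and not called at 0.31 without GalNAc-siRnf10 mouse 1 (adjusted p 0.0535, edgeR). Without GalNAc-siRnf10 mouse 1, only 3 of the 9 enzymes were called, out of 1053 genes in all.

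**Figure D2:**
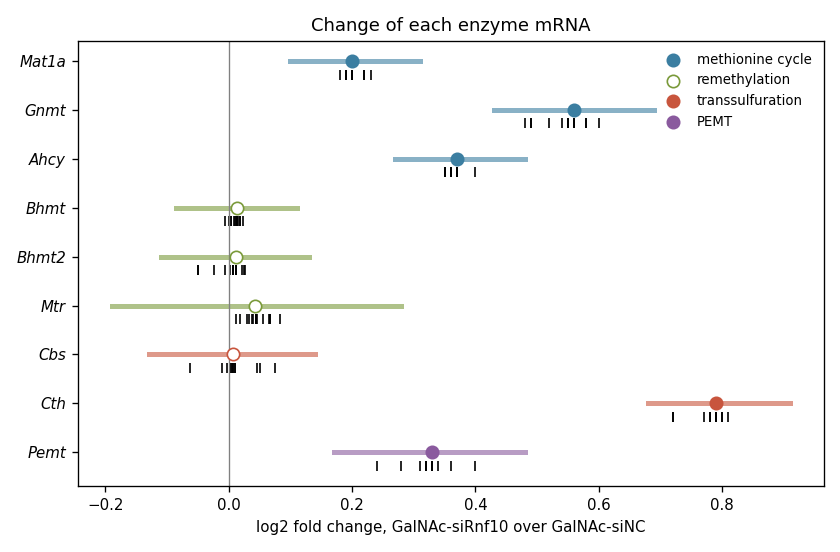
Log2 fold change (horizontal axis) of each enzyme in GalNAc-siRnf10-treated over GalNAc-siNC-treated mice. Circles are estimates from edgeR, filled where the adjusted p was under 0.05, bars are 95% intervals and black ticks the estimates under the alternative settings. All ticks of Cth lie between 0.72 and 0.81, and those of Bhmt, Bhmt2 and Cbs lie on both sides of 0.

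In all 5 enzymes that rose, every GalNAc-siRnf10-treated mouse was above every GalNAc-siNC-treated mouse. Such a separation was found in 16.5% of all genes tested, and the opposite one in 16.4%, and with 3 mice against 3 the exact two-sided permutation test gave its smallest possible p of 0.1 for each of them. The 9 enzymes together took between 0.867% and 0.881% of the counts in GalNAc-siNC-treated mice and between 0.981% and 0.988% in GalNAc-siRnf10-treated mice.

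The level of each mRNA was compared between genes as normalized count per kilobase of the deposited gene model. In GalNAc-siNC-treated mice, Gnmt (22594 ± 2027) and Mat1a (21136 ± 821) had the highest levels and overlapped. Bhmt (15018 ± 346) and Ahcy (12955 ± 413) came next and did not overlap. Pemt (2635 ± 296), Bhmt2 (2564 ± 105) and Cth (2513 ± 29.2) could not be ordered beyond their spread, and Cbs (1649 ± 157) and Mtr (32.9 ± 1.25) were below them.

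In GalNAc-siRnf10-treated mice no neighbours in the order overlapped. Gnmt (33250 ± 1019 per kilobase) was above Mat1a (24302 ± 445), and Ahcy (16766 ± 73) was above Bhmt (15165 ± 62.1). Cth (4353 ± 108) was above Pemt (3309 ± 113) and Bhmt2 (2584 ± 27.6), which were followed by Cbs (1656 ± 6.36) and Mtr (33.9 ± 1.61). The order depends on the length used. The deposited model of Bhmt is 5758 bases and its longest coding transcript 2490, and per kilobase of the latter Bhmt led in GalNAc-siNC-treated mice (34729, with Gnmt at 26327) and came after Gnmt in GalNAc-siRnf10-treated mice (35069 and 38743). On that length Ahcy was below Bhmt in both groups (14290 and 18494), Cth was below Pemt also in GalNAc-siRnf10-treated mice (6694 and 6942), and Cth was above Bhmt2 already in GalNAc-siNC-treated mice (3864 and 2564).

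**Figure D3:**
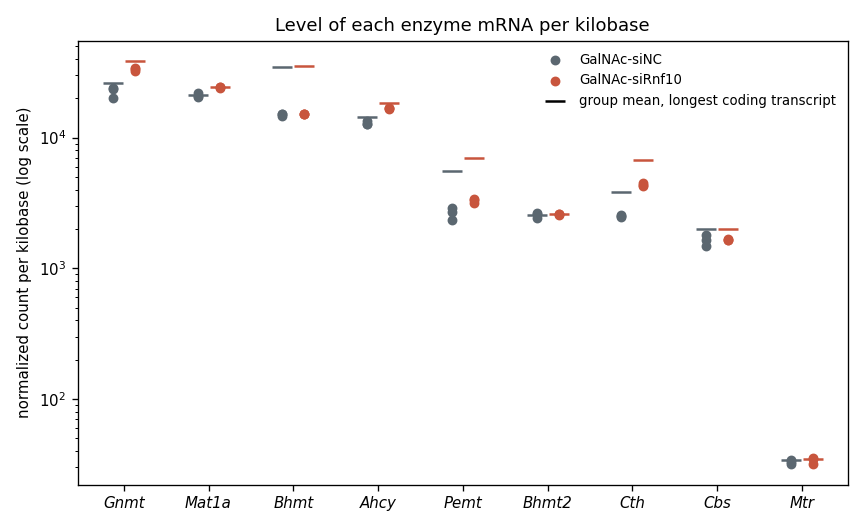
Normalized count per kilobase of the deposited gene model (vertical log axis) for each enzyme and mouse, in order of the GalNAc-siNC mean. Points are mice, grey for GalNAc-siNC and red for GalNAc-siRnf10, and dashes are group means per kilobase of the longest coding transcript. Mtr lies far below the other 8 enzymes.

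Ratios taken within each library do not depend on its depth, and they are given as descriptions with no test. They are per kilobase of the deposited gene model, and another gene length would scale a ratio alike in all 6 libraries. The ratio of Bhmt to Mtr per kilobase, the betaine and folate routes of remethylation, was 442, 446 and 484 in GalNAc-siNC-treated mice and 430, 473 and 442 in GalNAc-siRnf10-treated mice. Bhmt2 to Bhmt stayed between 0.167 and 0.173 in all 6 libraries. Neither ratio separated the groups, and nor did Mat1a to Mat2a, which encodes the form found in most other tissues (35.2 to 40.5 and 39.6 to 42.3), or Cbs to Bhmt, which compares the fates of homocysteine (0.102 to 0.119 and 0.109 in each treated mouse).

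The ratio of Gnmt to Pemt, a pair of large users of SAM in liver, was 8.74, 8.77 and 8.27 in GalNAc-siNC-treated mice and 9.91, 10.1 and 10.1 in GalNAc-siRnf10-treated mice. The ratio of Cth to Cbs, chosen after the values had been seen, was 1.69, 1.37 and 1.54 in GalNAc-siNC-treated mice and 2.71, 2.61 and 2.57 in GalNAc-siRnf10-treated mice. Both ratios were higher in every treated mouse than in any control mouse.

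**Figure D4:**
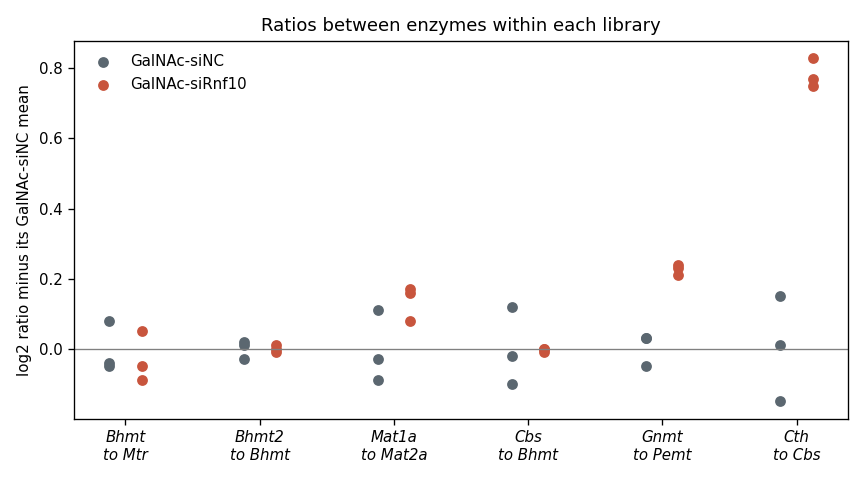
Log2 ratio between pairs of enzymes per kilobase in each library, minus its mean over the GalNAc-siNC-treated mice (vertical axis), with GalNAc-siNC in grey and GalNAc-siRnf10 in red. Cth to Cbs lies 0.78 higher and Gnmt to Pemt 0.23 higher in treated mice, and the groups overlap for the other 4 ratios.

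The promoters of enzymes that rose and of enzymes that were not called are set side by side here. RefSeq (GRCm38.p6) gave promoter windows for 7 of the 9 enzymes, and Mat1a and Cth had none and were not searched. The 250 bases before the start were searched on both strands for the letters of short motifs. These were the TATA box (TATAAA), the CCAAT box (CCAAT), the GC box (GGGCGG) and the E-box (CACGTG). Cores of the nuclear receptor element (AGGTCA), the cAMP response element (TGACG) and the glucocorticoid receptor element (TGTTCT) were searched too. So was an element of ATF4 and C/EBP factors (TGATGNAAT). A core is a part of an element, and whole elements of these receptor and cAMP kinds were not searched. No searched motif contains another. Each run below is upstream sequence on the minus strand, written 5′ to 3′ toward the start, without the bases that GENCODE annotates as exon, and capitals mark a match on either strand. Gnmt (chr17:46729169-46729415) and Ahcy (chr2:155074498-155074747) are shown as enzymes that rose, and Mtr (chr13:12258114-12258363) and Cbs (chr17:31637239-31637455) as enzymes that were not called.
Gnmt: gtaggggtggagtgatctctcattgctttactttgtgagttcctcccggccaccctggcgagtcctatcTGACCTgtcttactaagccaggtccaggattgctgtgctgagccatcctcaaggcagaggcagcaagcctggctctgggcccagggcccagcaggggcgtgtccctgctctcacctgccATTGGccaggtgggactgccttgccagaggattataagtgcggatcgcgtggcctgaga
Ahcy: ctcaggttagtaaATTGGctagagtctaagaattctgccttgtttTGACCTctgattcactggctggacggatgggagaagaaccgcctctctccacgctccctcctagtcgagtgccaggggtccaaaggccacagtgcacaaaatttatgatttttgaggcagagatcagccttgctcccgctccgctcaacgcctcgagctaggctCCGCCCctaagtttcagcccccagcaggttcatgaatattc
Mtr: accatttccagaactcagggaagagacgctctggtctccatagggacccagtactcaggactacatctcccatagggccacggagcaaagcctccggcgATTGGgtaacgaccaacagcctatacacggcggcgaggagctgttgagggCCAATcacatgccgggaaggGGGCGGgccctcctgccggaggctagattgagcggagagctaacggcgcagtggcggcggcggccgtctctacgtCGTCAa
Cbs: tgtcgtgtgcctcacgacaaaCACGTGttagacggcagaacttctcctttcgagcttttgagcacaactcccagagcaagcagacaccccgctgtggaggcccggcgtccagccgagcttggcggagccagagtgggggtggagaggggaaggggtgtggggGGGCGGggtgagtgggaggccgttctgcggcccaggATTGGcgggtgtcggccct

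Gnmt and Ahcy each held a CCAAT box and the core of the nuclear receptor element, both on the opposite strand, and Ahcy also a GC box. Pemt, which rose as well, held no nuclear receptor core in either of its 2 windows and a CCAAT box in 1 of them. Mtr and Cbs held the CCAAT box and a GC box, with the cAMP response element core in Mtr and an E-box in Cbs. The window of Bhmt, which was not called, held the nuclear receptor core at 3 positions and a CCAAT box. Only 47 bases of this window lie outside the annotated gene, and they hold 1 of these matches, a nuclear receptor core from -234 to -229. The window of Bhmt2, also not called, held 2 GC boxes alone. Matches were counted over whole windows, exon bases included. Among all 32851 promoters of the same length, 33.8% held the CCAAT box, 32.7% the GC box and 6.02% the E-box. The nuclear receptor core was in 14% and the cAMP response element core in 17.8%. The TATA box, the core of the glucocorticoid receptor element and the element of ATF4 and C/EBP factors were in none of the windows of these 7 enzymes. They were in 12.4%, 16.1% and 0.816% of all promoters. Mat1a and Cth, which rose, had no window to search. These matches describe letters in a window and not sites of binding.

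The genes around these enzymes were taken from 7 lists, also chosen with earlier results of these data known. The lists held 103 genes, of which 96 were tested. Of these, 18 rose and 6 fell, or 25%, against 14.0% of all genes tested, and their median log2 fold change was 0.082. No list changed in 1 direction throughout. The share called was 44.4% for methyltransferases, 35.7% for cysteine, sulfide and glutathione, 31.6% for choline and betaine and 26.3% for folate. It was 15.4% for methionine cycle and salvage, 10% for cobalamin and 8.33% for glycine and serine, which is near or below the share of all genes tested.

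In the methionine cycle and salvage list, 2 of 13 rose and none fell. Got1, the aspartate aminotransferase that can carry out the last step of salvage, rose from 4446 ± 342 to 10322 ± 10.9 (SD, n = 3 each, log2 fold change 1.22, adjusted p 7.62e-10, edgeR). Amd1, which decarboxylates SAM for polyamine synthesis, rose from 1204 ± 66.3 to 1738 ± 48.5 (log2 fold change 0.53). The relatives of the enzymes above, Mat2a, Mat2b, Ahcyl1 and Ahcyl2, were not called, with log2 fold changes between 0.059 and 0.13. With a correction for gene length and GC content, 4 of the 13 were called.

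Among 19 folate genes, 3 rose and 2 fell. Mthfd1l, a mitochondrial enzyme of formate synthesis, rose from 13.9, 37.1 and 34.6 to 94.9, 88.9 and 71.4 (log2 fold change 1.59, adjusted p 0.00145, edgeR), and Slc25a32, the mitochondrial folate carrier, rose by a log2 fold change of 0.56 and Aldh1l1 by 0.19. Fpgs, which adds glutamates to folate, had a log2 fold change of -0.34. With the length and GC correction 8 folate genes were called, and without GalNAc-siRnf10 mouse 1, 2 or 3 there were 3, 3 and 2.

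In the choline and betaine list, 4 of 19 rose and 2 fell. Chdh, which begins the oxidation of choline to betaine, fell from 5559, 5377 and 4907 to 4150, 4501 and 4401 (log2 fold change -0.28, adjusted p 0.00753, edgeR), whereas Aldh7a1, which completes it, rose from 11654, 12902 and 12733 to 15185, 15317 and 14495 (log2 fold change 0.27, adjusted p 0.00342, edgeR). Sardh and Pipox, which oxidize the sarcosine made by Gnmt, each rose by a log2 fold change of 0.22, and Dmgdh, which oxidizes the dimethylglycine left by Bhmt, was not called. None of 6 choline and betaine transporters was called. The ethanolamine kinases Etnk2 (log2 fold change 0.34) and Etnk1 (-0.25) moved oppositely. Without GalNAc-siRnf10 mouse 1, 2 or 3 there were 2, 3 and 3 calls in this list in place of 6.

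Downstream of Cth, 5 of 14 genes of cysteine, sulfide and glutathione rose and none fell. Cdo1, which oxidizes cysteine toward taurine, rose from 27042, 26535 and 27935 to 34565, 33916 and 34296 (log2 fold change 0.33, adjusted p 0.000168, edgeR). Gclc, the catalytic subunit of the first enzyme of glutathione synthesis, rose from 4829, 4671 and 4691 to 6253, 6070 and 6574 (log2 fold change 0.41, adjusted p 0.000106, edgeR), while its partner Gclm was not called. Ethe1, a mitochondrial enzyme of sulfide oxidation, rose by a log2 fold change of 0.94, Chac2, which degrades glutathione, by 0.33, and Baat, which conjugates bile acids with taurine or glycine, by 0.23. Chac1 and Gsr, of the same list, were not called, with log2 fold changes of -0.60 and -0.15 (adjusted p 0.0763 and 0.203, edgeR). Without GalNAc-siRnf10 mouse 2 or 3, 3 genes of this list were called.

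Among 9 other methyltransferases that use SAM on small molecules, 3 rose and 1 fell. Inmt, which methylates tryptamine and related amines, rose from 5737, 7400 and 7888 to 15447, 15962 and 14881 (log2 fold change 1.14, adjusted p 0.000241, edgeR), and the thiol methyltransferases Tmt1a and Tpmt rose by log2 fold changes of 0.43 and 0.24. Of 12 glycine and serine genes, Sds, serine dehydratase, alone rose (2575 ± 242 to 4006 ± 134, log2 fold change 0.64), and of 10 cobalamin genes Mmab alone was called, with a log2 fold change of -0.35. Each of these last lists had 3 calls without GalNAc-siNC mouse 1.

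**Figure D5:**
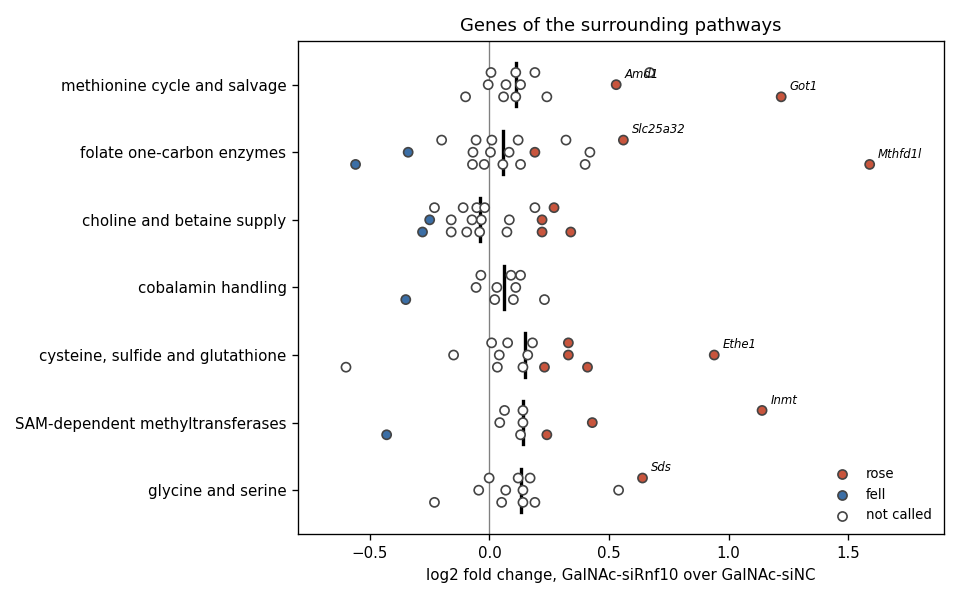
Log2 fold change (horizontal axis) of each tested gene in the 7 surrounding lists, in red where it rose, blue where it fell and white where it was not called, with the list's median as a black line. The medians lie between -0.041 and 0.15, and Mthfd1l, Got1 and Inmt lie farthest to the right.

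Some markers of hepatocytes rose as well. Of 8 hepatocyte markers, 4 rose (Alb, Ttr, Serpina1a and Cps1) and none fell, with a median log2 fold change of 0.16, and their summed normalized count was 1560799 to 1659749 in GalNAc-siNC-treated mice and 2333935 to 2417496 in GalNAc-siRnf10-treated mice. Most of this sum was Alb, with means of 1159043 in GalNAc-siNC-treated and 1805569 in GalNAc-siRnf10-treated mice. Hnf4a, Asgr1, Asgr2 and Apoa1 were not called, with log2 fold changes between -0.12 and 0.11. Alb took between 3.72% and 4.36% of counts in GalNAc-siNC-treated mice and between 5.93% and 6.08% in GalNAc-siRnf10-treated mice.

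Of the other cell types, none of 8 Kupffer cell markers was called (sums of 5340 to 6145 and 5619 to 5928). Among sinusoidal endothelial markers 2 of 8 rose (2833 to 2935 and 3106 to 3251), and among stellate cell markers also 2 of 8 (3604 to 3738 and 4174 to 4212). Those of stellate cells were Dcn (means of 1457 in GalNAc-siNC-treated and 1865 in GalNAc-siRnf10-treated mice) and Reln (490 and 627). The other stellate cell markers were not called. Lrat, Des, Col1a1, Pdgfrb and Hgf had log2 fold changes between -0.27 and -0.031, Col3a1 had 0.14, and the median of the list was -0.11. Spp1 fell as the only one of 5 tested cholangiocyte markers (2037 to 2079 and 1122 to 1154). Cftr did not pass the filter on low counts, with raw counts of 10, 4 and 6 in GalNAc-siNC-treated mice and 0 in all GalNAc-siRnf10-treated mice. Most of the cholangiocyte sum was Spp1, with means of 1836 in GalNAc-siNC-treated and 982 in GalNAc-siRnf10-treated mice. S100a9 fell as the only one of 5 tested blood cell markers (3317 to 5673 and 4174 to 4886). Of 6 pancreatic markers only Cela2a passed the filter (22.6 to 34.6 and 22.4 to 37.3 for the list), and Cpa1 and Amy2a5 were at 0 in every library. The part of these markers in the changes of the enzymes was not tested.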

How the data were processed

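Liver RNA of 6 mice was sequenced by the authors as stranded mRNA libraries with paired-end reads of 150 bases on a DNBSEQ platform, and mapped to GRCm38 with HISAT2. The deposited table holds raw counts per gene, without normalization, together with gene model lengths. The counting tool, annotation release and strand setting are not given in the sources used here. Per the labels, the authors' processing also used DESeq2. The dose and injection times of this experiment are not given in the sources used here.

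Groups were taken from the sample labels, and the mice of the groups are different animals. The 9 enzymes, the surrounding lists and the marker lists were chosen with earlier results of these data known. Symbols, coordinates and transcripts were matched by identifier to GENCODE M21, in which 55227 of 55487 genes were found. Genes were filtered with filterByExpr by group, normalized by TMM and tested with edgeR 4.0.16 (robust quasi-likelihood F-test, treatment as the only term) in R 4.3.3, with Benjamini-Hochberg adjustment over the 14046 genes. A gene was called at an adjusted p under 0.05. Intervals are 95% intervals of the fitted change. Intervals and p-values rest on the spread between 3 mice per group, with the variance of each gene drawn toward a trend over all genes tested. The common dispersion was 0.00861, a summary over genes, and the fit gave each gene its own standard error (0.0467 for Bhmt and 0.0733 for Pemt). For depth, 3 counts were at most 1.12e-05% of a library, which covers counting error only. From each surrounding list, up to 6 called genes were named by size of change, if their groups did not overlap and their normalized counts averaged 50 or more. The nearest protein-coding neighbours of Bhmt, the gene whose exons overlap those of an enzyme and the 5 genes most like the enzyme with the highest mean count per kilobase of the deposited gene model were named too, and near copies of Ahcy and Bhmt, single list members that were not called and markers were named after their values were seen. Some called genes of the surrounding lists are counted but not reported here by name.

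Alternatives were RLE and upper quartile normalization, no filter or at least 10 counts in every library, DESeq2 1.42.0, voom with quality weights in limma 3.58.1, the mouse number as a block, a correction for gene length and GC content (splines with 5 degrees of freedom each as offsets), that correction with the block, leaving out each mouse in turn, and summing genes that share sequence. The steps were tested on simulated counts. Figures were drawn with matplotlib 3.10.9.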

Additional observations from a re-analysis of the deposited data

How the results depend on the processing

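Of 288 values recomputed under alternative settings, 260 kept their direction and their side of the threshold, or stayed within 1.5 times for counts. The same number of the enzymes, 5 of 9, was called under each of the 9 settings that keep all mice, where 1816 to 2443 genes were called in all. With the replicate block 1816 genes were called. Same-numbered mice correlated by -0.000993, 0.0272 and -0.0337 in their deviations from the group means, and mice with different numbers by -0.0364 to 0.0368. These values show no pairing by mouse number, but with 3 mice per group they cannot exclude one.

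Values near 0 changed sign without being called. Bhmt2 was -0.0057 with limma voom and -0.05 with the length and GC correction, with or without the replicate block. Cbs was -0.0031 with upper quartile normalization and -0.011 with limma voom. Without GalNAc-siNC mouse 1, Bhmt was -0.0064, Bhmt2 -0.024 and Cbs -0.063. The length and GC correction called 4 methionine cycle and salvage genes and 8 folate genes. The cause was not tested.

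Leaving out each mouse in turn, which leaves fewer samples, gave log2 fold changes of 0.18 to 0.23 for Mat1a, 0.48 to 0.60 for Gnmt, 0.35 to 0.40 for Ahcy, -0.0064 to 0.023 for Bhmt, -0.024 to 0.027 for Bhmt2, 0.011 to 0.083 for Mtr, -0.063 to 0.075 for Cbs, 0.77 to 0.81 for Cth, 0.24 to 0.40 for Pemt and -1.27 to -1.15 for Rnf10. The number of the 9 enzymes called was 3 to 5, and of all genes 1053 to 2864. By list, the calls were 2 to 3 for methionine cycle and salvage, 2 to 6 for folate, 2 to 8 for choline and betaine, 1 to 3 for cobalamin, 3 to 7 for cysteine, sulfide and glutathione, 3 to 5 for methyltransferases and 1 to 3 for glycine and serine.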

Other observations

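Gnmt had the highest mean count per kilobase of the deposited gene model among the 9 enzymes, although it overlapped Mat1a in GalNAc-siNC-treated mice and came after Bhmt there per kilobase of the longest coding transcript. The genes whose library-scaled log2 counts followed it most closely over the 6 libraries were Alkbh6 (Pearson r 0.9989), Inmt (0.9986), 0610005C13Rik (0.9982), Ces1f (0.9975) and Sds (0.9974). These 6 points share the treatment and their libraries, and 335 of the 10944 genes compared (3.06%) had r above 0.95. Among the other enzymes, r with Gnmt was 0.97 for Ahcy, 0.96 for Cth, 0.96 for Pemt and 0.84 for Mat1a, and 0.56 for Bhmt, 0.40 for Bhmt2, 0.31 for Mtr and 0.27 for Cbs. Inmt, like Gnmt and Pemt, was lower in GalNAc-siNC mouse 1 (5737) than in control mice 2 and 3 (7400 and 7888).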
